A study of Homo sapiens with 36 samples.

Results

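The cohesin sites described here were B2B Rad21 peaks on chromosomes 1 to 22, X and Y with no B2B CTCF peak overlapping them or lying within 500 bp of either end. They were chosen by the Rad21 and CTCF peak lists themselves, and 14593 of 38888 Rad21 peaks (37.5%) met the rule. They are called CTCF-free below, and the other 24295 Rad21 peaks, which had a CTCF peak within 500 bp, are called CTCF-bound. CTCF-free means only that the CTCF list held no peak there.

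B2B is short for BEAS-2B, an immortalized line made from bronchial epithelium of the normal airway, and A549 is a lung adenocarcinoma line. Chromatin immunoprecipitation and sequencing (ChIP-seq) was carried out on both lines, for which the labels name no treatment, with 36 samples in 18 groups of 2 replicates, each group being a line and an antibody or its input. Each of the 16 peak lists pools the 2 replicates of a target, so no value here has a replicate error. All 9 B2B lists were used, with the 7 A549 lists set beside them, and Rad21 and CTCF in A549 were not analysed here. The depth behind a list is unknown. Each is 1 established line, so that neither stands for airway or tumour cells in general.

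Cohesin is a ring of proteins, with Rad21 as the subunit that closes it, that holds DNA together and extrudes loops of chromatin. CTCF binds a long DNA motif and halts the moving ring, so that most strong cohesin sites in mammalian cells lie at CTCF sites. Cohesin is loaded and found at active promoters and enhancers as well, where it meets RNA polymerase II (pol II), the Mediator complex with its subunit Med1, and histones that carry H3K4me3 at promoters or H3K27ac at promoters and enhancers. JunB, Jun and JunD are subunits of AP-1, a transcription factor that answers growth and stress signals and binds many enhancers.

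The B2B label was checked on marker genes by H3K4me3 within 1 kb of a start. Of the general epithelial genes 4 of 5 had a peak, namely the adhesion genes EPCAM and CDH1 and the keratins KRT8 and KRT18, but not KRT19. Of the basal airway genes 1 of 5 had one, KRT17, while KRT5, KRT14, TP63 and NGFR had none. All 3 mesenchymal genes (VIM, FN1 and COL1A1) had one. Of 4 alveolar or club cell genes NKX2-1 had a peak, and neither of 2 blood genes did.

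CTCF-free sites of 3 kinds are shown first as DNA, because the printed windows of the Jun-family sites differed from the other printed windows in base composition. Each run is the 100 bp around the Rad21 summit, on the plus strand of hg38, and capitals mark each CG dinucleotide. The first pair comes from promoters with H3K4me3 and pol II. TSC22D1, a leucine zipper protein gene, is at chr13:44435201-44435300 in an exon, and HPRT1, a purine salvage enzyme gene, is at chrX:134460060-134460159 just upstream of its start.
TSC22D1: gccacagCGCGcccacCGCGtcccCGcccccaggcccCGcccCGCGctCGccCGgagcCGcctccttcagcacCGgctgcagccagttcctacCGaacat
HPRT1: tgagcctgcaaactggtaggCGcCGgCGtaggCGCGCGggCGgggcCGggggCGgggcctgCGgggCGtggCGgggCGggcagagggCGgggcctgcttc

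The next pair comes from distal sites with H3K27ac and Med1. One lies at chr6:100229089-100229188 between genes, nearest to the start of SIM1, a transcription factor gene, and the other at chr1:156104168-156104267 in an intron of LMNA, the lamin A/C gene.
SIM1: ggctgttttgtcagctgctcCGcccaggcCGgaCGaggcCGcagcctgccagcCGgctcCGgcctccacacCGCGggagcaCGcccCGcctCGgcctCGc
LMNA: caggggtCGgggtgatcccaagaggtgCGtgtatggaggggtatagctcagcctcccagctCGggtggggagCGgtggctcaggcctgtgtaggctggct

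The last pair comes from distal sites with JunB, Jun and JunD peaks. One lies at chr18:29165217-29165316 between genes, with the cadherin gene CDH2 as the nearest protein-coding start, and the other at chr7:17276334-17276433 in an intron and nearest to AHR, the aryl hydrocarbon receptor gene.
CDH2: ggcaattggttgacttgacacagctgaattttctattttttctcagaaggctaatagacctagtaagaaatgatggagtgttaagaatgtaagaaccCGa
AHR: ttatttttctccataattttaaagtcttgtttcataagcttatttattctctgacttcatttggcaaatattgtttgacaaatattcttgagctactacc

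The TSC22D1 and HPRT1 windows were 77% and 82% G and C and held 13 and 14 CG dinucleotides. The SIM1 window held 12 and the LMNA window 4, at 77% and 66% G and C. The CDH2 and AHR windows were 37% and 27% G and C, with 1 and 0 CG dinucleotides. Both belong to the CTCF-free peaks of low local background described below, which were 27.2% G and C at the median. The base composition of Jun-family sites as a class was not measured. The promoter of TSC22D1 held 2 copies of the GC box GGGGCGGGG, a word read by Sp-family factors, and that of HPRT1 held 1.

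The distance to CTCF chose the sites and is given as a description. A CTCF peak overlapped 22151 Rad21 peaks, and another 2144 had one at a gap of up to 500 bp. The CTCF-free peaks lay at a median of 9.56 kb from the nearest CTCF peak, and 7094 of them (48.6%) lay over 10000 bp away. Just inside the limit, at a gap of 501 bp, were peaks at PLEKHA7, MC1R, ELL, ZC3H7B and PPP6R2 with Rad21 fold enrichments from 3.14 to 7.0. Just outside it, at 499 or 500 bp, were peaks at CCDC85A, HMGN4, METTL17 and SEMA6D with fold enrichments from 3.61 to 14.6. The 1230 peaks at 501 to 1000 bp and the 984 peaks at 250 to 500 bp had median fold enrichments of 4.71 and 4.64, and H3K27ac peaks at 87.0% and 88.1%. The values on the 2 sides of the limit were close.

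Fold enrichment is the ratio of the read pileup at a summit to the local background of the peak caller, after the same constant is added to both. Both were solved from the deposited fold enrichment and p-value. CTCF-free peaks had a median fold enrichment of 4.90 (quartiles 3.68 to 6.61) and CTCF-bound peaks one of 8.48 (6.14 to 12.7). Their median pileup was higher, at 71.0 reads against 35.0, and their median local background was higher still, at 15.4 reads against 3.0. Of the CTCF-free peaks 48.9% fell in the lowest of 4 equal bins of fold enrichment of all Rad21 peaks and 5.49% in the highest. Values by local background are therefore given beside the start, mark, Jun and AP-1 word shares below, and its part in the other comparisons was not tested.

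CTCF-free cohesin sites lay mostly at gene starts. The summit was within 1 kb of an annotated start of any gene in 11592 of 14593 peaks (79.4%, 95% Wilson interval 78.8 to 80.1) and in 34.2% (33.6 to 34.8) of CTCF-bound peaks. The difference was 45.2 points (95% Newcombe interval 44.3 to 46.1), which like all intervals given covers counting error only. Among peaks with a local background over 10 times the lowest of the Rad21 list the shares were 87.4% (86.8 to 88.0) and 71.3% (70.3 to 72.3). At over 2 to 10 times the lowest they were 53.4% (50.9 to 55.8) and 26.6% (25.5 to 27.7). Among peaks at most 2 times the lowest they were 6.15% and 9.24%, so that the difference turned to -3.09 points (-4.70 to -1.08). Within 100 bp of a start lay 45.9% of CTCF-free and 15.7% of CTCF-bound summits. The remaining 3001 CTCF-free peaks, over 1 kb from any start, are called distal.

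Around protein-coding starts, the summits of both kinds clustered at the start itself. The median summit of the 10612 CTCF-free peaks was 1 bp upstream (signed median -1.0 bp, quartiles -65.0 to 101 bp), and 50.1% (49.2 to 51.1) lay upstream. For the 6732 CTCF-bound peaks the signed median was -19.0 bp (quartiles -126 to 101 bp), and 57.3% (56.1 to 58.5) lay upstream. Within 100 bp of these starts lay 56.5% of the CTCF-free and 46.6% of the CTCF-bound summits. Starts on both strands within 1 kb, the layout of divergent gene pairs, were found at 31.4% of CTCF-free and 24.3% of CTCF-bound peaks near starts, a difference of 7.06 points (5.81 to 8.31). Distal CTCF-free summits lay in introns in 50.4% of cases, between genes in 37.5% and in exons in 12.2%. For distal CTCF-bound summits the shares were 53.5%, 38.8% and 7.77%.

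**Figure D1:**
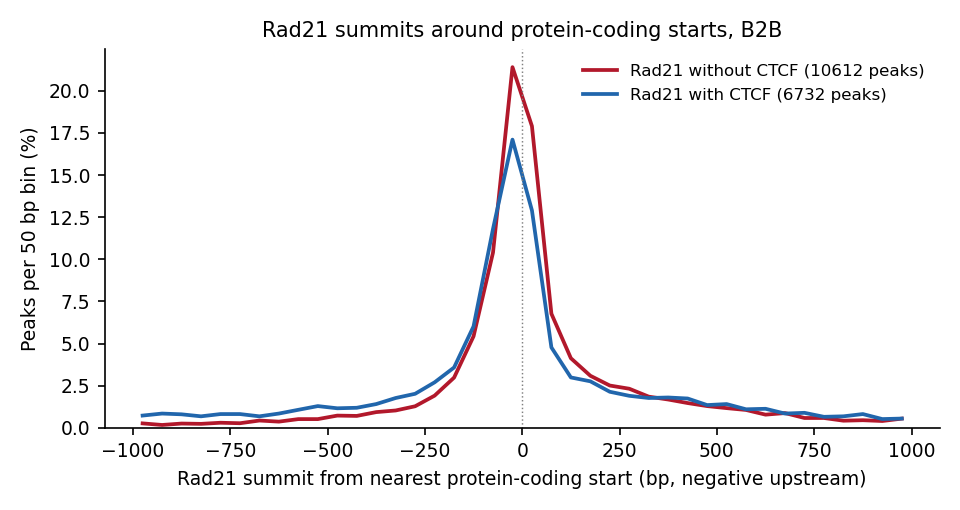
Distribution of Rad21 summits by distance from the nearest protein-coding start, with the distance in bp on the x axis (negative is upstream) and the percent of peaks per 50 bp bin on the y axis. The highest bin of the 10612 CTCF-free peaks, just upstream of the start, held 21.4% of them. It was also the highest bin of the 6732 CTCF-bound peaks, with 17.1%.

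Chromosome 19, which is rich in genes, carried the most CTCF-free peaks for its length, 17.8 per Mb, and there 50.3% of Rad21 peaks were CTCF-free. On chromosome 17 the density was 10.9 per Mb and the share 39.4%. Chromosome 5 had the lowest share, 31.4%, at 3.78 per Mb.

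Promoter and enhancer marks were compared next, to ask what kind of element these sites were. H3K4me3 overlapped 62.6% (61.9 to 63.4) of CTCF-free peaks and 24.0% of CTCF-bound peaks, against 38.5% of all Rad21 peaks. H3K27ac overlapped 75.9% (75.2 to 76.6) and 31.2%, against 48.0% of all. The share with pol II was 43.8% (43.0 to 44.6) against 22.6%, with 30.6% over all Rad21 peaks. Med1 was scored on chromosomes 1 to 12, since its list ends early, and overlapped 65.0% (64.0 to 66.0) of CTCF-free peaks, 30.9% of CTCF-bound peaks and 43.0% of all. The 4 differences were 38.7, 44.7, 21.2 and 34.1 points, and each interval excluded 0.

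Near starts both kinds of cohesin site carried these marks, and the gap narrowed. H3K4me3 was at 75.3% of CTCF-free and 59.6% of CTCF-bound peaks (difference 15.7 points, 14.4 to 17.0), and H3K27ac at 84.4% and 67.5% (16.9 points, 15.7 to 18.1). The pol II shares were 51.9% and 47.3% (4.58 points, 3.17 to 5.98), and the Med1 shares 74.7% and 65.9% (8.76 points, 7.15 to 10.4). On chromosomes 1 to 12, 47.6% of the CTCF-free peaks near starts carried all 4, and 10.9% carried none of the 4, against 40.9% and 24.0% of the CTCF-bound peaks there.

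At distal sites the enhancer marks showed the wider gaps. H3K27ac was at 42.9% (41.1 to 44.7) of distal CTCF-free peaks and 12.3% of distal CTCF-bound peaks, a difference of 30.5 points (28.7 to 32.4). Med1 was at 28.3% (26.3 to 30.4) and 14.2%, a difference of 14.1 points (12 to 16.3). Pol II differed by 2.85 points (1.62 to 4.17) and H3K4me3 by 8.28 points (7.04 to 9.6). H3K27ac and Med1 together marked 466 of the distal CTCF-free peaks on chromosomes 1 to 12 (24.6%), against 7.66% of the distal CTCF-bound ones. Neither mark was at 1096 (57.9%) of the CTCF-free and 83.2% of the CTCF-bound distal peaks.

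**Figure D2:**
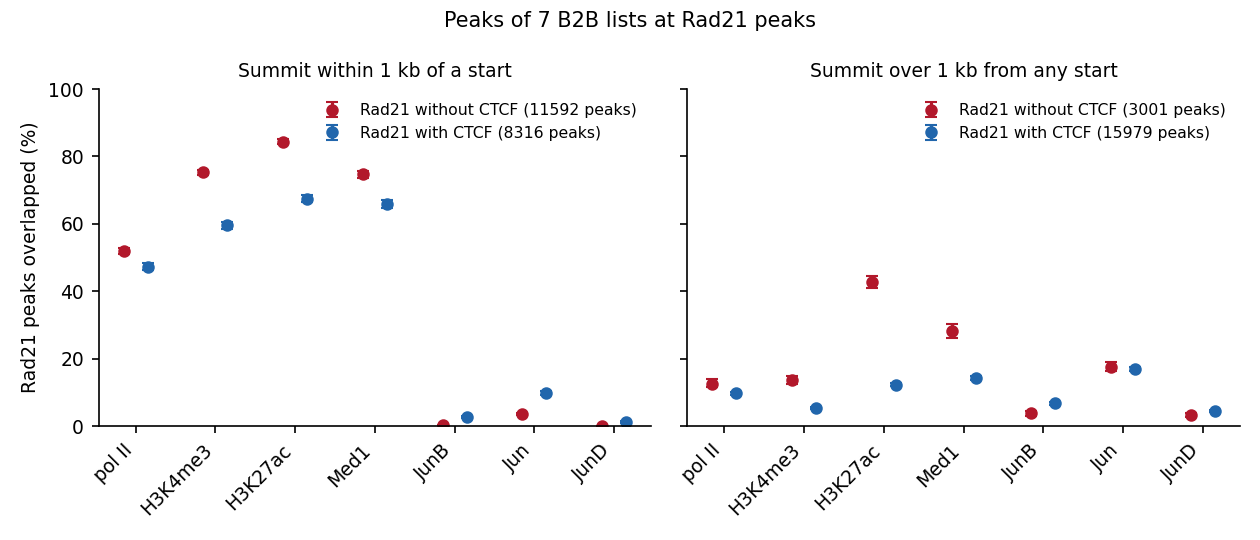
Percent of Rad21 peaks overlapped by a peak of each B2B list, for CTCF-free and CTCF-bound peaks within 1 kb of a start (left) and farther away (right), with 95% Wilson intervals as bars (Med1 on chromosomes 1 to 12 only). H3K27ac at distal peaks stood at 42.9% without CTCF and 12.3% with CTCF, while Jun stood at 17.7% and 17.0%.

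These differences moved with the local background of the Rad21 peak. Expressed against the lowest background in the same B2B list, the median for peaks near starts came to 20.1 times in Rad21, 15.4 times in pol II, 14 times in H3K4me3 and 16 times in H3K27ac, but to 5.46 times in CTCF, 1.61 times in Med1 and 1.90 times in Jun. Of the CTCF-free peaks 83.7% had a background over 10 times the lowest, and of the CTCF-bound peaks 32.8%. Within that class H3K4me3 was at 69.7% (68.9 to 70.5) and 56.6% (55.5 to 57.7), H3K27ac at 83.4% and 72.7%, pol II at 48.4% and 45.1%, and Med1 at 73.6% (72.6 to 74.6) and 73.9% (72.7 to 75.1). The Med1 shares, which lay 34.1 points apart over all peaks, had overlapping intervals in this class.

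Marks were scarce at the 764 CTCF-free peaks (5.24%) with a background at most 2 times the lowest, and at the 9825 CTCF-bound peaks (40.4%) of like background. H3K27ac was at 1.18% (0.621 to 2.22) and 1.66% (1.42 to 1.93), H3K4me3 at 3.01% (2.01 to 4.48) and 4.05% (3.68 to 4.46), pol II at 8.38% and 8.56%, and Med1 at 0.855% (0.366 to 1.99) and 5.58% (5.08 to 6.11). For Med1 the order was thus the reverse of that over all peaks, with a difference of -4.72 points (-5.45 to -3.49). The summit windows of these CTCF-free peaks were 27.2% G and C at the median with 0 CG dinucleotides, against 74.3% and 12 in the high-background class, and 41.6% in the CTCF-bound peaks of low background. Their median pileup was 10.0 reads against 80.0. Jun overlapped 34.9% (31.6 to 38.4) of them and 18.8% (18.0 to 19.6) of CTCF-bound peaks of like background, so that the order of the Jun shares was the reverse of that over all peaks. At over 2 to 10 times the lowest Jun was at 10.4% of CTCF-free and 16.3% of CTCF-bound peaks. The classes were set after the values were seen.

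**Figure D3:**
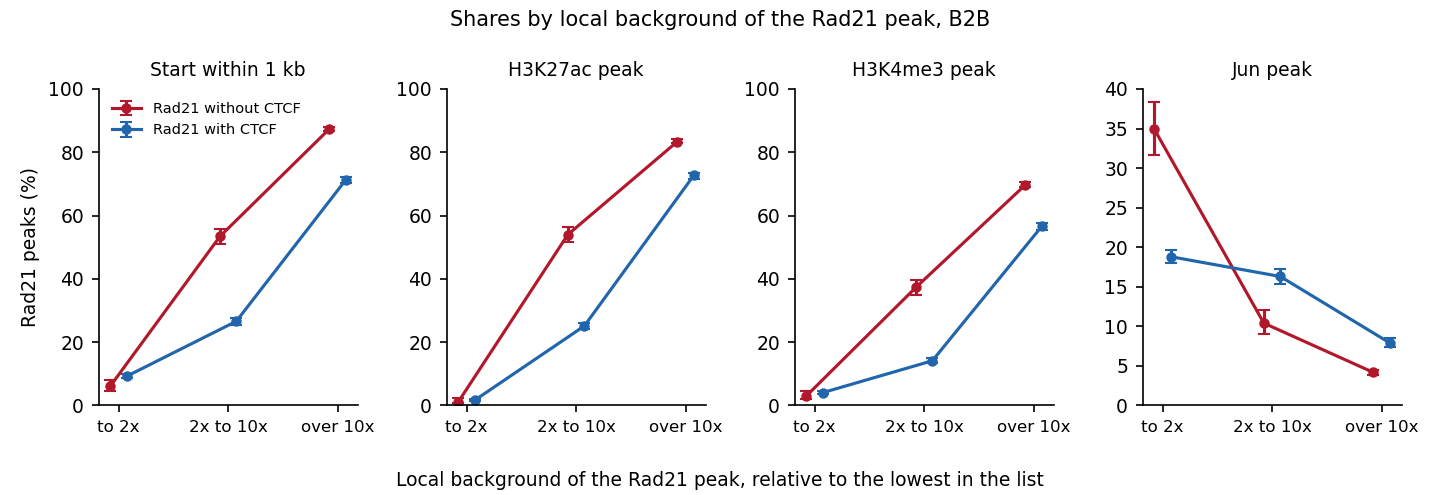
Percent of Rad21 peaks with a start within 1 kb, an H3K27ac, an H3K4me3 or a Jun peak, by the local background of the Rad21 peak relative to the lowest of its list, with 95% Wilson intervals as bars and a separate scale for Jun. From the lowest to the highest class of CTCF-free peaks H3K27ac rose from 1.18% to 83.4% while Jun fell from 34.9% to 4.17%.

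Jun-family peaks were rare at CTCF-free cohesin in B2B. Any of the 3 overlapped 951 peaks (6.52%) and all 3 overlapped 65 (0.445%). JunB was at 1.04% of CTCF-free and 5.39% of CTCF-bound peaks, against 3.76% of all Rad21 peaks, a difference of -4.35 points (-4.67 to -4.02). Jun was at 6.48% and 14.6%, against 11.5% of all (-8.08 points, -8.67 to -7.48). JunD was at 0.699% and 3.4%, against 2.39% of all (-2.70 points, -2.97 to -2.43).

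Near starts all 3 were less frequent without CTCF. There JunB was at 38 of 11592 CTCF-free peaks (0.328%), Jun at 415 (3.58%) and JunD at 6 (0.0518%), against 2.67%, 9.78% and 1.29% of CTCF-bound peaks. At distal sites Jun was at 17.7% (16.3 to 19.1) of CTCF-free and 17.0% of CTCF-bound peaks, a difference of 0.620 points whose interval (-0.829 to 2.14) holds 0, over classes of sites that differed in opposite directions. JunB and JunD were lower at distal CTCF-free peaks, with differences of -3.0 points (-3.75 to -2.17) and -1.30 points (-1.96 to -0.542). Where a Jun peak overlapped a distal Rad21 peak, the summits were a median of 74.0 bp apart at CTCF-free and 87.0 bp at CTCF-bound peaks. Within 250 bp lay 95.3% and 89.0% of them, distances that the required overlap limits in advance.

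At distal enhancer-marked sites all 3 Jun proteins were less frequent without CTCF. Among distal peaks with H3K27ac and Med1, Jun was at 21.0% (17.6 to 25) of the 466 CTCF-free peaks and at 51.0% (47.7 to 54.4) of the 860 CTCF-bound peaks. JunB was at 3.0% (1.8 to 4.98) and 22.2% (19.6 to 25.1). JunD was at 0 of 466 (0 to 0.818), where 3 peaks would make 0.644%, and at 10.2% (8.38 to 12.4). Among distal peaks with neither mark the order was turned, with Jun at 19.3% (17.0 to 21.7) of CTCF-free and 12% (11.3 to 12.6) of CTCF-bound peaks and JunD at 7.21% and 3.13%. CTCF-bound peaks with both marks had a median Rad21 fold enrichment of 8.48 and the CTCF-free ones 5.50.

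The AP-1 word TGACTCA was sought on both strands within 50 bp of the Rad21 summit. Over all peaks it was found at 2.10% of CTCF-free and 2.13% of CTCF-bound peaks, a difference of -0.0243 points (-0.315 to 0.277). At distal peaks it was at 5.83% (5.05 to 6.73) and 2.53% (2.30 to 2.79), a difference of 3.3 points (2.47 to 4.22), and windows of the same size 2 kb away held it in 1.28% and 1.5%. By background class, from the lowest to the highest, the word was at 4.45%, 5.16% and 1.55% of CTCF-free and at 2.36%, 2.86% and 1.24% of CTCF-bound peaks. With a Jun peak the word was at 20.9% (17.7 to 24.6) of distal CTCF-free and 10.5% (9.44 to 11.7) of distal CTCF-bound peaks, and without a Jun-family peak at 2.56% and 0.887%. Around the summits of the Jun peaks themselves it was at 48.8% (44.5 to 53.0) where they overlapped distal CTCF-free cohesin and at 39.8% of all Jun peaks.

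Other words were read the same way. The GC box was at 14.4% (13.8 to 15.1) of CTCF-free peaks near starts and at 6.0% of distal ones, against 6.60% and 1.01% of CTCF-bound peaks and 9.16% of windows at the starts of all protein-coding genes. The ETS word CCGGAAGT was at 1.71% of CTCF-free peaks near starts and the NRF1 word GCGCATGCG at 0.811%, against 3.38% and 1.29% at all protein-coding starts. Likewise the E-box CACGTG was at 3.24% and 2.55% and the cAMP response word TGACGTCA at 0.759% and 0.565%, with 3.45% and 1.21% at all protein-coding starts. Windows 2 kb from the CTCF-free peaks near starts held these 4 words in 0.0733%, 0.00863%, 1.20% and 0.0690%. NFY (CCAATCA), YY1 (AAGATGGC), RUNX (TGTGGTTT) and C/EBP (TTGCGCAA) words were each at under 1% of CTCF-free peaks near starts, between 0.0690% and 0.958%. The TEAD word GGAATG was at 5.66% of distal CTCF-free and 5.92% of distal CTCF-bound peaks, and windows 2 kb away held it in 4.95% and 5.30%. The core of the CTCF motif, which stands here for what chose the sites, was sought without a mismatch and was at 11.1% of CTCF-bound peaks. Near starts it was at 0.138% of CTCF-free and 6.28% of CTCF-bound peaks, and at distal sites at 1.27% and 13.5%. Windows 2 kb from the CTCF-free peaks held it in 0.0388% near starts and 0.0833% at distal sites.

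**Figure D4:**
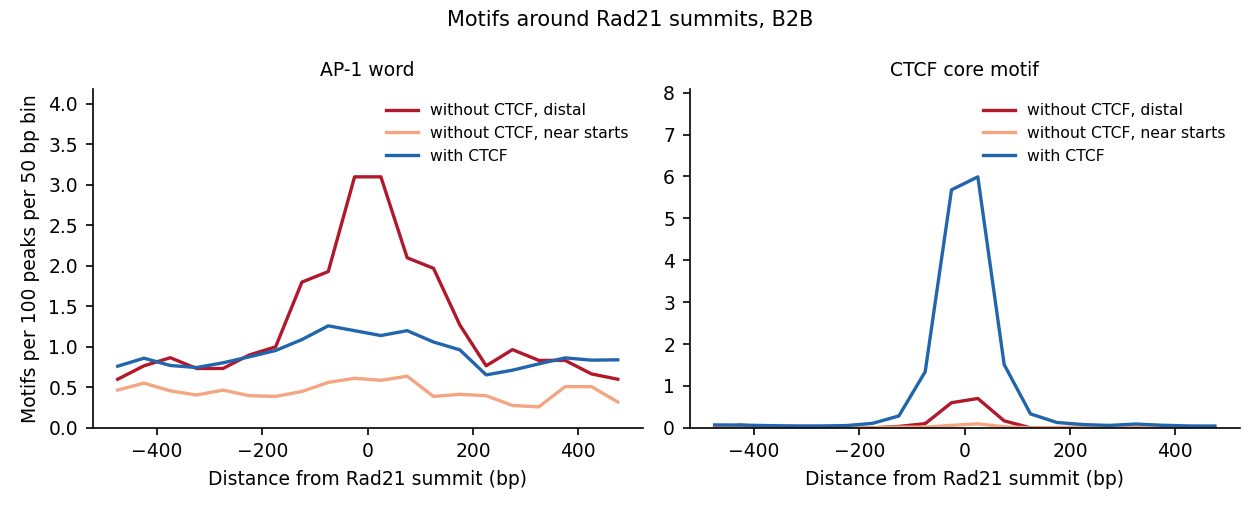
Copies of the AP-1 word (left) and of the CTCF core motif (right) per 100 peaks in 50 bp bins by distance in bp from the Rad21 summit, for distal CTCF-free, start-near CTCF-free and CTCF-bound peaks. Distal CTCF-free peaks reached 3.10 AP-1 words per 100 peaks in each of the bins beside the summit, and CTCF-bound peaks reached 5.99 CTCF cores.

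Promoters were then sorted by cohesin class. Of 12323 protein-coding genes with H3K4me3 within 1 kb of a start in B2B, 6176 (50.1%) had CTCF-free cohesin there and no CTCF-bound peak, 3399 (27.6%) had CTCF-bound cohesin alone, 1522 (12.4%) had both and 1226 (9.95%) had no Rad21 peak. Pol II was at 77.8%, 82.0%, 80.0% and 70.5% (67.9 to 73.0) of these classes in that order, and H3K27ac at 97.4%, 97.5%, 98.1% and 79.9% (77.6 to 82.1). Med1 was at 91.9%, 94.7%, 95.1% and 62.6% (59.2 to 66.0) on chromosomes 1 to 12. Jun was at 18.3% (17.4 to 19.3) of promoters with CTCF-free cohesin alone, 24.2% (22.8 to 25.7) with CTCF-bound cohesin alone, 37.9% (35.5 to 40.4) with both and 23.3% (21.0 to 25.8) with none. Promoters without Rad21 were thus the lowest in pol II, H3K27ac and Med1, and promoters with CTCF-free cohesin alone were the lowest in Jun. Classes were set per gene over its annotated starts, and the part of the number of starts was not tested. A Jun peak at such a promoter need not overlap its Rad21 peak.

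The promoter sites with the highest Rad21 fold enrichment were 10 of 5293 with H3K4me3 and pol II. At TSC22D1 (chr13:44435053-44435529) the Rad21 pileup was 265 reads on a background of 7.0, a fold enrichment of 33.3, with fold enrichments of 15.5 for pol II, 20.0 for H3K4me3, 26.1 for H3K27ac and 8.65 for Med1. Others among them were HCCS, a heme lyase gene, at 25.7, OGA, which removes O-GlcNAc, at 23.5, HPRT1 at 23.4, TRIM56, an E3 ligase gene, at 23, ADCY9, an adenylate cyclase gene, at 23, DUSP6, a phosphatase gene that damps ERK, at 22.4, FAM107B at 21.4 and OTUD4 at 21.1. H3K4me3 fold enrichments at these loci ran from 1.96 to 20.0 with a median of 3.07. Jun peaks were present at TSC22D1 (3.79) and DUSP6 (4.75), and JunB and JunD peaks at none of the 10. The Med1 list does not reach HCCS, HPRT1 or ADCY9.

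Of 507 distal sites with H3K27ac and Med1, the 10 highest had Rad21 fold enrichments from 14.2 to 24.7 on pileups of 72.0 to 289 reads. The site near SIM1 lay 165 kb from its start and had fold enrichments of 24.7 for Rad21, 3.49 for H3K27ac and 6.36 for Med1. The LMNA site, 2.44 kb upstream of the nearest protein-coding start, had 24.6, 9.01 and 5.85. The site near EBLN1 (chr10:22229040-22229506) had 21.5, 6.38 and 8.84 and an H3K4me3 peak of 3.76. In an intron of the antisense gene ZFHX4-AS1, 7.05 kb upstream of the zinc finger homeobox gene ZFHX4, Rad21 stood at 20.9 on 72 reads, H3K27ac at 26.0 and pol II at 15.4. Near the platelet-derived growth factor gene PDGFA the nearest CTCF peak was 111 kb away and no A549 list had a peak. The sites nearest to MIDEAS, IRF2BPL, GPR132, ARHGEF19 and ARID1B completed the set. Jun peaks of 4.59 to 7.41 were present at 3 of the 10 (MIDEAS, GPR132 and ARHGEF19), and JunB or JunD peaks at none.

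Of 59 distal sites with all 3 Jun proteins, the 10 with the highest summed Jun fold enrichment had few Rad21 reads. Jun reached 42.0 to 77.6, JunB 5.01 to 18.0 and JunD 5.97 to 15, while Rad21 stood at 4.52 to 10.7 (median 5.58, against 5.65 for all distal CTCF-free peaks) on pileups of 7.0 to 18.0 reads and a background of 0.770 to 1.000. None of the 10 had H3K4me3 or H3K27ac peaks, and none that the Med1 list reaches had a Med1 peak. Med1 could not be scored at the site nearest to CDH2, and 7 of the 10 had pol II peaks of 3.51 to 26.4. The site nearest to CDH2 (chr18:29165147-29165388) had fold enrichments of 69.3 for Jun, 18.0 for JunB and 15 for JunD, and lay 987 kb from that start. The site near AHR (chr7:17276265-17276651) had Jun at 77.6 and pol II at 13.1. The others were nearest to SLC39A10, ARAP2, C11orf87, MTAP, C2CD3, SNRPE, PFDN1 and DAB2. Neither printed window holds the AP-1 word, which says only that these letters are not within 50 bp of the Rad21 summit.

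**Figure D5:**
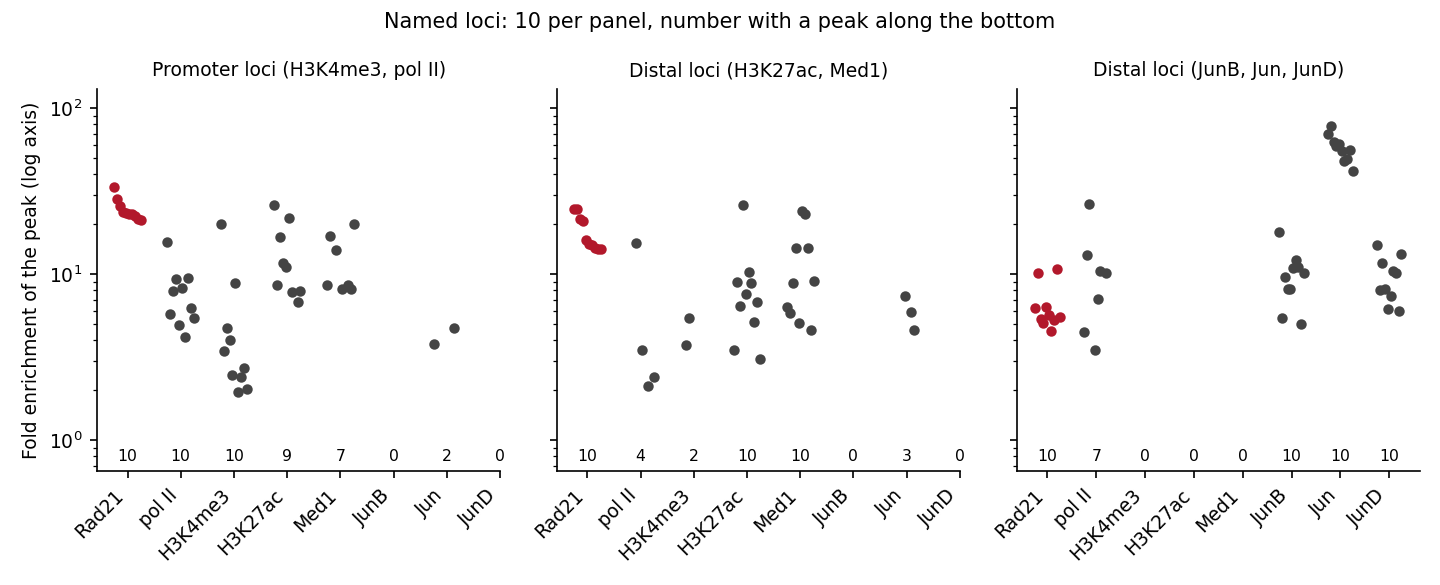
Fold enrichment (log axis) of Rad21 and of the peaks of 7 other B2B lists at the 10 promoter loci, 10 distal enhancer-marked loci and 10 distal Jun-family loci chosen by rank, with the number of loci that had a peak along the bottom (Med1 only where its list reaches). Rad21 spanned 21.1 to 33.3, 14.2 to 24.7 and 4.52 to 10.7 in the 3 panels, and Jun at the last set 42.0 to 77.6.

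Peaks without marks were less common among CTCF-free than among CTCF-bound peaks. On chromosomes 1 to 12, 19.8% of CTCF-free peaks had none of H3K4me3, H3K27ac, pol II and Med1. The shares were 60.9% of CTCF-bound and 46.3% of all Rad21 peaks. On chromosomes 1 to 12, where all lists can be scored, 1625 of the CTCF-free peaks (17.9%) overlapped none of the 7 other B2B lists. Their median Rad21 fold enrichment was 5.19 and their median pileup 45 reads, against 4.94 and 80.0 for the rest. Of these peaks 47.6% (45.1 to 50) lay within 1 kb of a start, and 43.9% (41.5 to 46.4) had an H3K4me3 peak in A549, against 88.2% of the rest. The CTCF core motif was at 1.54% (1.04 to 2.26) of them and at 0.0670% (0.0286 to 0.157) of the rest.

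Over all chromosomes 2631 CTCF-free peaks met none of the other B2B lists that could be scored, and the 5 highest are named. The first, 2.07 kb upstream of the start of the mitochondrial carrier gene SLC25A39, had a Rad21 fold enrichment of 25.2 on 167 reads. The site near LITAF had 23.9 on 87 reads, the one near CFAP74 had 20.6 on 267 reads, the one near LRFN5 had 20.3 on 70 reads, and the one near SLC45A4 had 20.0 on 69 reads. Med1 could not be scored at SLC25A39 and LITAF, which lie past the end of its list. In A549 the SLC25A39 site had an H3K4me3 peak of 33.3, the LRFN5 site one of 7.87 and the SLC45A4 site an H3K27ac peak of 8.65, while LITAF and CFAP74 had no peak in the A549 lists that reach them.

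Some genes gathered many CTCF-free peaks. Of 8944 protein-coding genes that were nearest to at least 1 such peak within 100 kb, 5830 had 1, 2076 had 2 and 187 had 5 or more. BCOR, a Polycomb corepressor gene on the X chromosome (chrX:40049815-40177329), had 23 over 162 kb, of which 21 had H3K27ac and none Jun, beside 2 CTCF-bound Rad21 peaks. BAHCC1 had 18 with H3K27ac at 16. PDGFA had 15 with H3K27ac at 12 and no CTCF-bound peak, PLEC, which encodes the linker plectin, had 15 with H3K27ac at all 15, and WNT7B, a Wnt ligand gene, had 15 with H3K27ac at 9. CXXC5, NR2F2 and RAI1 had 14 each and GSE1 had 13. CTCF-bound Rad21 peaks numbered 24 at GSE1, 10 at WNT7B, 9 at NR2F2, 8 at BAHCC1, 7 at CXXC5, 6 at PLEC and 2 at RAI1. Over all CTCF-free peaks H3K27ac was at 75.9% and Jun at 6.48%.

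Gene lists were read by the number of genes with a CTCF-free peak within 1 kb of a start. Over all 20033 protein-coding genes this was 43.8% (43.2 to 44.5), and over the 12323 with H3K4me3 it was 62.5%. A CTCF-bound peak was within 1 kb of a start in 28.3% of all protein-coding genes. These lists were chosen with earlier results known, and the counts are descriptions without a test.

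Genes of AP-1 and of the early response are given first. Of 16 Jun, Fos, ATF and small Maf genes with H3K4me3, 13 (81.2%) had one, and of 28 immediate early genes with H3K4me3, 22 (78.6%) had one. Over all 18 genes of the first list, CTCF-free peaks were at 13 (72.2%) and CTCF-bound peaks at 11 (61.1%). Over all 30 of the second they were at 24 (80.0%) and 19 (63.3%). FOS, the partner of Jun in AP-1, had a Rad21 fold enrichment of 9.45 on 136 reads, with pol II, H3K4me3, H3K27ac and Med1 but no Jun-family peak in B2B, and all 3 Jun proteins in A549. FOSL1, another Fos-family gene, had 6.4 and MAFF, a small Maf gene, 7.14, and ATF7 had 10.9. DUSP6 at 22.4, IER2, an early growth response gene, at 12.9, SGK1, a kinase gene, at 11 and GADD45A, a DNA damage response gene, at 10.9 were the highest of the immediate early genes.

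Of 30 heat shock chaperone genes with H3K4me3, 23 (76.7%) had a CTCF-free peak, among them HSPD1 and HSPE1, mitochondrial chaperonins that share 1 promoter peak of 12.2, HSP90AA1 at 10.1 and BAG3 at 8.77. Of 79 cytosolic ribosomal protein genes, all with H3K4me3, 32 (40.5%) had a CTCF-free peak and 32 a CTCF-bound one, and the highest of the first kind was RPL27A at 9.88. Of 22 genes of cohesin and its regulators, all with H3K4me3, 6 (27.3%) had a CTCF-free and 15 (68.2%) a CTCF-bound peak. The 6 included SMC1A, a core subunit of the ring, at 20.3, YY1 at 5.38 and SGO1, which protects cohesin in mitosis, at 5.26.

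Of 22 YAP-TEAD target genes with H3K4me3, 11 (50%) had a CTCF-free peak. Of all 23, 11 (47.8%) had a CTCF-free and 17 (73.9%) a CTCF-bound one. The tissue factor gene F3 had a Rad21 fold enrichment of 7.56 and JunB and Jun peaks in B2B, and CRIM1 had 10.2. Of 31 matrix and adhesion genes with H3K4me3, 19 (61.3%) had one, with the intermediate filament gene VIM at 13.5 on 215 reads and with both JunB and Jun peaks in B2B. COL6A2 stood at 11, ZEB1 at 10.3 and ITGA3 at 10.3, the last with no peak of the other B2B lists except Med1, which could not be scored there.

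Epithelial junction and simple keratin genes had a CTCF-free peak at 9 of 13 with H3K4me3 (69.2%), among them the tight junction gene OCLN at 6.89, the splicing factor gene ESRP2 at 8.94 and KRT8 at 8.00 with a Jun peak. Of 9 basal airway genes with H3K4me3, 4 (44.4%) had one, and of all 20 genes 5 had one. At NGFR the Rad21 fold enrichment was 12.8 on 286 reads with no peak of the other B2B lists that reach chromosome 17 (Med1 does not), and at EGFR it was 8.87 with pol II, H3K4me3, H3K27ac and Med1. Of 22 lung lineage genes 6 had one, including the transcription factor genes SOX9 at 6.79 and GATA6 at 4.21 and the surfactant protein gene SFTPD at 5.39. Of 488 oncogenes on the list of the study with H3K4me3, 319 (65.4%) had one, close to the 62.5% over all such genes, with SMC1A at 20.3, DDB2, a DNA repair gene, at 19.3, ARID1B, a chromatin remodeller gene, at 16.2 and SMAD4, a TGF-beta signal transducer, at 15.7. CTCF-bound peaks were at 12 of 32 heat shock genes (37.5%), 20 of 39 matrix and adhesion genes (51.3%), 10 of 27 junction and keratin genes (37.0%), 9 of 20 basal genes (45%), 4 of 22 lung lineage genes (18.2%) and 260 of 614 oncogenes (42.3%).

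The same B2B sites were then read in the A549 lists, side by side and without a test, since they were chosen in B2B. H3K4me3 in A549 overlapped 79.6% (79.0 to 80.3) of the CTCF-free sites, against 53.2% of all B2B Rad21 peaks. On chromosomes 1 to 12, pol II was at 72.3% (47.0% of all), H3K27ac at 82.1% (51.6% of all) and Med1 at 48.8% (32.3% of all). Near starts H3K4me3 was at 91.6% of CTCF-free and 76.6% of CTCF-bound sites, and H3K27ac at 93.2% and 76.2%. At distal sites H3K4me3 was at 33.3% and 16.8%, and H3K27ac at 39.8% and 15.1%. The A549 lists lacked the high local background of B2B, with medians near starts of 1.30 to 1.87 times the lowest of each list, and its part in the shares and fold enrichments set side by side was not tested.

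Jun-family peaks of A549 were read in the same way. JunB was at 18.9% (16.3% of all Rad21 peaks), Jun at 20.5% (18.3% of all) and JunD at 11% (9.04% of all). Near starts the A549 shares were 20.1%, 22.2% and 12.4% at CTCF-free peaks and 24.0%, 27.4% and 15.7% at CTCF-bound ones, and the B2B shares at the former were 0.328%, 3.58% and 0.0518%. At distal sites the A549 shares were 14.2%, 14.2% and 5.66% at CTCF-free and 9.91%, 11.6% and 3.75% at CTCF-bound peaks. The distal A549 Jun share of 14.2% (13.0 to 15.5) stood beside a B2B share of 17.7% (16.3 to 19.1). The JunB list of A549 held 28068 peaks, 26.4% of them near starts, and that of B2B 8563, 11.7% of them near starts. The part of list length in these shares was not tested. Among promoters with H3K4me3 in B2B, JunB of A549 was at 35.6% of those with CTCF-free cohesin alone, 43.1% with CTCF-bound cohesin alone, 53.7% with both and 22% with none.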

How the data were processed

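ChIP-seq peak lists of 9 targets in B2B and 7 in A549 were used. By the paper's methods and the submitters' processing notes, the authors aligned reads to hg38 with Bowtie2 2.4.4, removed duplicates, merged the 2 replicates of each target, scaled by read number with SAMtools 1.13 and called peaks with MACS2 2.2.7.1. Options and control were not given in the sources used here. The deposited narrowPeak lists hold a score per peak, a fold enrichment (a ratio of pileup to local background, with the same constant added to both) and −log10 p and q, all from the authors. The −log10 q was 2 or more in every peak. Lists of B2B Med1 and A549 pol II, Med1 and H3K27ac end before the last chromosome, and their shares used chromosomes 1 to 12.

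Pileup and background were solved from fold enrichment and p, with fold enrichment taken as pileup plus 1 over background plus 1. A list was at a Rad21 peak if they overlapped by 1 bp. Starts came from GENCODE 44. Shares have Wilson and differences Newcombe 95% intervals (Python 3.11.15, SciPy 1.17.1), which cover counting error only, and a difference was called where its interval excluded 0. A count of 0 is given with the share that 3 peaks would make. Sequence was read from hg38 with pysam 0.24.0, where no peak passed a chromosome end. Overlap and interval code was tested on simulated data and, in part, against bedtools 2.31.1. Matplotlib 3.10.9 made the plots.

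Named loci were the 10 promoter sites with H3K4me3 and pol II and the 10 distal sites with H3K27ac and Med1 that had the highest Rad21 fold enrichment, the 10 distal sites with all 3 Jun proteins by summed Jun fold enrichment, the 5 strongest with no other B2B list, the peaks nearest the limit on each side, the 10 genes with the most sites, and at most 4 genes per gene list. Some loci that this rule takes are not reported here. Genes are the nearest protein-coding start. The sites, lists and words were chosen with earlier results of these data known. Alternatives were other CTCF distances, stricter q, summit distance, other chromosome sets, other windows, peaks away from starts and 4 equal bins of fold enrichment. Peaks near starts, 4 equal bins of pileup, classes of background and the peaks without other lists were added after the values were seen.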

Additional observations from a re-analysis of the deposited data

Results flagged for a closer look

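Outside chromosomes 1 to 22, X and Y, the B2B Rad21 list held 61 peaks on unplaced or alternative sequences, none of them mitochondrial, and 23 of these had no CTCF peak within 500 bp. They were set apart because they lie in data that no comparison used, and 23 is above the 3 peaks taken as the limit for a count of 0. No gene annotation was read for these sequences, and they are given as a count only.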

How the results depend on the processing

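Every share rests on lists that pool replicates, and depth is unknown, so intervals cover counting error only. Rad21 pileups ended at 298 reads in both groups. No paired analysis was possible because each list pools its replicates, and for the same reason none could leave out a replicate. Of 124 alternatives, 96 kept direction and call or, for the number of CTCF-free peaks, stayed within 1.5 times. In the lowest of 4 equal bins of Rad21 fold enrichment the difference in pol II was -3.73 points and in the AP-1 word -1.07. In the highest bin it was -0.402 for Jun and 1.73 for the AP-1 word. Away from starts it was 0.620 for Jun and 3.3 for the AP-1 word, which was 0.0566 at a −log10 q of at least 5 and -0.702 within 100 bp. In the lowest of 4 bins of pileup the differences were -1.48 for pol II, 0.361 for H3K4me3, 1.1 for H3K27ac, -4.58 for Med1, 0.380 for JunB, 13.9 for Jun, 4.54 for JunD and 2.07 for the AP-1 word. In the highest bin they were -0.791 for Jun and 0.715 for the AP-1 word. With a background at most 2 times the lowest they were -0.183 for pol II, -1.04 for H3K4me3, -0.481 for H3K27ac, -4.72 for Med1, 1.39 for JunB, 16.1 for Jun, 5.48 for JunD, 2.09 for the AP-1 word and -3.09 for a start within 1 kb. On chromosomes 1 to 12 there were 9090 CTCF-free peaks, since fewer chromosomes were read. The cause of the other changes was not tested.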
